A study of Mus musculus with 8 samples.

Results

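The OAS genes encode the 2'-5'-oligoadenylate synthetase family, and 6 of them, Oas1a, Oas1b, Oas2, Oas3, Oasl1 and Oasl2, were taken by their symbols from the 54146 genes of the files. All 6 symbols were listed in each of the 8 files, although Oas2 and Oas3 had no count in some unstimulated libraries. The libraries came from primary astrocytes of neonatal C57BL/6 mouse cortex that had been infected with a lentivirus and selected with puromycin, so every group carried an shRNA construct. The 4 groups of 2 libraries were control KD (a non-silencing shRNA) and GSTM1 KD (an shRNA against Gstm1), each unstimulated (the basal level) or given TNF-α at 50 ng/ml for 6 h. The knockdown was applied to mixed glia, which were then depleted of CD11b-positive cells, and brains of pups were pooled in flasks. In TPM, transcript abundance scaled for gene length and library depth, Gstm1 was at 338 to 627 in the 4 control KD libraries and at 39.4 to 53.8 TPM in the 4 GSTM1 KD libraries, so the labels held for the targeted gene.

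Synthetases of this family bind double-stranded RNA and join ATP into short chains with 2'-5' links, named 2-5A, which switch on a latent endoribonuclease that cuts cellular and viral RNA. The genes are classical targets of type I interferon, whose receptor activates transcription factors that include STAT2 and IRF9. Astrocytes respond to interferon with the same set of genes, and TNF-α is known foremost for its action through NF-κB.

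The total of expected counts, which are RSEM's estimates of reads per gene, ranged from 17349676 to 34434633 per library, and 19434 to 21610 genes had a count. A count of 3 was taken as the floor of detection, equal to 0.0862 to 0.181 CPM, the count scaled to library size. Each of the 10 astrocyte markers had counts in every group, and their summed level ran from 1772 to 4129 TPM with the control shRNA and from 3913 to 6236 TPM with the Gstm1 shRNA. Gfap alone ranged from 651 to 4184 TPM, and the astrocyte marker called in the knockdown comparisons, S100b, was lower with the Gstm1 shRNA (log2 fold change -1.44 unstimulated and -1.71 under TNF-α). The 12 microglia and macrophage markers summed to 53.1 to 65.5 TPM, with P2ry12 at or under the floor in all libraries, and Cd3e, Cd3g and Ms4a1 of lymphocytes were at 0. The GSTM1 KD TNF-α replicate 1 library stood above replicate 2 for 6 of 6 OAS genes (median log2 difference 1.28) and for 27 of 27 other interferon-stimulated genes (0.82). In the same pair of libraries 7 of 8 expressed microglia and macrophage markers were higher in replicate 1 (median log2 difference 0.84), and 5 of 8 were in control KD after TNF-α (1.79). Their part in the OAS values was not tested. In bulk RNA, fewer cells with a transcript and less of it per cell cannot be told apart.

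All 6 genes lie on mouse chromosome 5 (GRCm38, GENCODE M21) in a pair of clusters. Oasl2 (114896936 to 114912234, plus strand) and Oasl1 (114923240 to 114937915, plus strand) are neighbours. The second cluster holds Oas2 (120730333 to 120749853, minus strand), Oas3 (120753098 to 120777661, minus strand), Oas1b (120812635 to 120824163, plus strand) and Oas1a (120896256 to 120907521, minus strand). Exons of Oasl1 overlap those of the antisense gene Gm13822. Use of the strand in counting is not given in the sources used here, so reads of that stretch are uncertain. Oas1b is annotated as a polymorphic pseudogene, and the allele of C57BL/6 mice is known to carry a premature stop codon, so its values here are transcript levels only. The expected counts of Oas1a were fractional in 7 of 8 libraries, and those of Oas1a and its near copy Oas1g summed to whole numbers (within 0.015) in 8 of 8, so these genes share reads and their split is an estimate.

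Promoters of 4 of the 6 genes, those of Oasl2, Oasl1, Oas3 and Oas1a, were in the RefSeq table used here (GRCm38.p6, 250 bases before to 50 bases after the start), and these 4 are shown. They are printed in the direction of transcription, with capitals for each match to GAAANNGAA, the repeated core of the interferon-stimulated response element on which STAT2 and IRF9 act. They span chr5:114896684-114896983 (plus strand) for Oasl2, chr5:114922990-114923289 (plus strand) for Oasl1, chr5:120777610-120777909 (minus strand) for Oas3 and chr5:120907476-120907775 (minus strand) for Oas1a.
Oasl2: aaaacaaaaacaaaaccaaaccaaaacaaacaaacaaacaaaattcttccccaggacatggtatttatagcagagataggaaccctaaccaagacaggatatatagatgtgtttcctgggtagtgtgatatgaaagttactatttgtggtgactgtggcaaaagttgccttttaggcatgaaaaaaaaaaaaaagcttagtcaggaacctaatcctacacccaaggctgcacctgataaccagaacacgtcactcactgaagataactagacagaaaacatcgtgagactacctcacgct
Oasl1: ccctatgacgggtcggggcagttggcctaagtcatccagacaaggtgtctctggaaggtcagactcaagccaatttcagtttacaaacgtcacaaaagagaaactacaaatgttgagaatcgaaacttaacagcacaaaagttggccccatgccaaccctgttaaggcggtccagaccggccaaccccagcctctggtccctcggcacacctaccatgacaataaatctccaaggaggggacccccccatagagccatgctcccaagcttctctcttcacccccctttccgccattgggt
Oas3: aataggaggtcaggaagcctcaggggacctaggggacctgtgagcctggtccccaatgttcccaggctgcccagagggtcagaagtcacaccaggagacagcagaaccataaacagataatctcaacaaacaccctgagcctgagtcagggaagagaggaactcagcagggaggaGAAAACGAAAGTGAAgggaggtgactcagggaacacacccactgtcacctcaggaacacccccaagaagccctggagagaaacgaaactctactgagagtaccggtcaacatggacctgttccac
Oas1a: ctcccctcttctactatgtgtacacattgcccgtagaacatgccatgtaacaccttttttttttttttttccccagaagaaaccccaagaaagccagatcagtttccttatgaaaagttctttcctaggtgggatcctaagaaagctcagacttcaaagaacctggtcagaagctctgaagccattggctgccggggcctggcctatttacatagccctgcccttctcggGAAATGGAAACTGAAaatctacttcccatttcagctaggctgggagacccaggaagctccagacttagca

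The word was searched on both strands, and 8.56% of all 32851 promoters in the table held it. Oas3 had 2 matches that overlap, starting at -75 and -69 from the gene's start, and Oas1a had 2 that overlap, at -20 and -14. The promoters of Oasl1 and Oasl2 held none, which says only that these letters are not in this window. The word TTCNNNGAA of the gamma interferon activation site, which reads the same on both strands and is in 8.3% of promoters, was found once, in Oas1a at -98, where it overlaps no other match. The NF-κB word GGGANTTTC (1.11% of promoters, both strands) was in none of the 4. A match is a description of the sequence and not a bound site.

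Per length, Oasl2 was the OAS transcript at the highest level in every group. Its product is an OAS-like protein with ubiquitin-like domains that has kept enzyme activity in the mouse. Oasl2 was at 16.9 and 31.5 TPM in control KD and at 28.8 and 23.6 TPM in GSTM1 KD when unstimulated. Under TNF-α it was at 72.6 and 73.7 TPM in control KD and at 251 and 148 TPM in GSTM1 KD. The basal groups overlap, and the stimulated groups lie apart, with GSTM1 KD higher. Oasl2 made up 78.8% of the summed mean TPM of the 6 genes in basal control KD, 90.1% in basal GSTM1 KD, 79.1% in stimulated control KD and 81.3% in stimulated GSTM1 KD.

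The next levels were those of Oas1a, Oasl1 and Oas1b, and their order changed between groups. In basal control KD, Oas1a had a mean of 3.34 TPM ± 0.658 (SD, n = 2), above Oasl1 at 1.61 TPM ± 0.205, whose range overlaps that of Oas1b at 1.51 TPM. In basal GSTM1 KD, Oas1a (1.39 TPM ± 0.658) and Oas1b (0.920 TPM ± 0.665) overlap in range, as do Oas1b and Oasl1 (0.540 TPM ± 0.0283). After TNF-α stimulation Oasl1 led these 3 in both groups, with 7.63 TPM ± 2.02 in control KD and 21.1 TPM ± 13.7 in GSTM1 KD. The range of Oasl1 overlapped that of the next gene, Oas1a in control KD (7.31 TPM ± 1.81) and Oas1b in GSTM1 KD (12.6 TPM ± 6.53). Oas2 and Oas3 were lowest throughout, with at most 0.980 and 1.59 TPM in any library, and their ranges overlap in each group. In stimulated control KD the mean of Oas3 (0.260 TPM) was above that of Oas2 (0.15 TPM), and without stimulation both were at or under the floor.

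**Figure D1:**
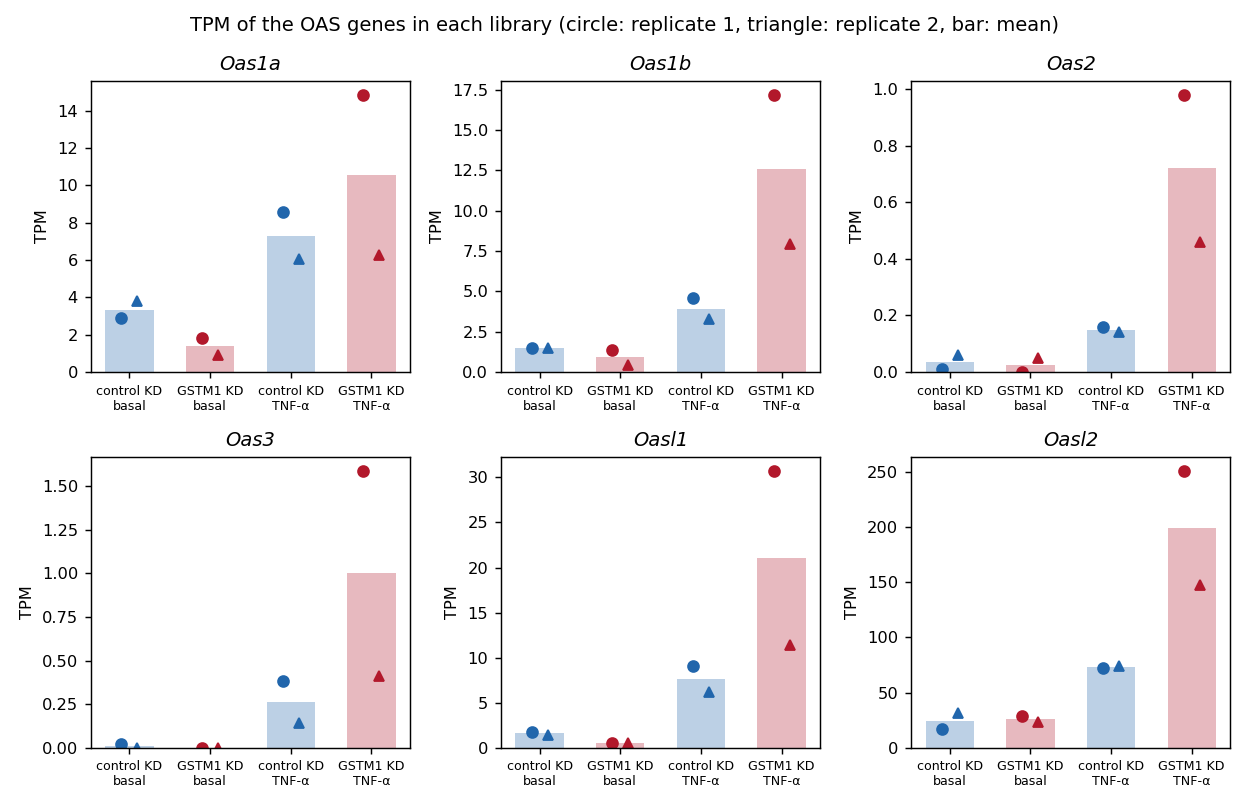
TPM (linear axes that differ between panels) of each OAS gene in the 4 groups, with a circle for replicate 1, a triangle for replicate 2 and a bar for their mean. In GSTM1 KD after TNF-α the circle lies above the triangle in all 6 panels, as for Oasl2 at 251 and 148 TPM.

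The first comparison asked how reduced GSTM1 changed OAS transcripts at the basal level. A gene was called where its adjusted p was under 0.05. Oasl1 was lower in GSTM1 KD, and the other 3 genes tested were not called. The product of Oasl1 lacks synthetase activity and is known to restrain the translation of Irf7, a driver of interferon production. Oasl1 had 59 and 42 counts (1.75 and 1.46 TPM) in control KD and 13 and 6 counts (0.56 and 0.52 TPM) in GSTM1 KD. Both GSTM1 KD libraries lay below both control KD libraries. The log2 fold change was -1.92 (SE 0.418, adjusted p = 0.0456), or 0.265 of the control KD level. This call was also lost with effective-length offsets and with all 8 libraries in the fit. Over the alternatives that tested Oasl1 its log2 fold change was -2.44 to -1.01. Among all 14899 genes tested in this comparison, 5.62% were called lower and 4.6% higher, so 1 call among 4 genes stands beside that background. The 9 oligodendrocyte lineage markers, whose part in these values was not tested, summed to 533 to 596 TPM in unstimulated control KD and 423 to 441 TPM in GSTM1 KD, with Olig2 called lower. The 8 neuron markers summed to 191 to 205 and 233 to 240 TPM, with none called. Most of that sum was Map2 (means of 115 and 138 TPM) and Tubb3 (79.4 and 94.4 TPM), while Rbfox3 was at 0.075 and 0.185 TPM and Snap25 at or under the floor. The 6 endothelial markers, with Cldn5 at 0, summed to 5.75 to 6.34 TPM in control KD and 3.18 to 3.99 TPM in GSTM1 KD. Of the 3 that were tested, Flt1 (log2 fold change -0.91) and Cdh5 (-1.65) were lower and Kdr (1.39) higher, with none called. Of the 6 fibroblast and meningeal markers (101 to 165 and 82.5 to 115 TPM) Col1a2 was called lower. The median log2 change was -1.11 over the 4 OAS genes tested and 0.00 over all genes (-0.00203).

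Oas1a encodes an active synthetase of a single OAS domain, and Oas1b is its close relative. Oas1a had 98.52 and 93.26 expected counts (2.87 and 3.8 TPM) in control KD and 39.77 and 17 (1.85 and 0.92 TPM) in GSTM1 KD. The groups lie apart, and the log2 fold change of -1.31 (SE 0.414) had an adjusted p of 0.0980. With the reads of Oas1g added, as an alternative chosen after seeing the data, it was -1.43 (adjusted p = 0.0680). Counts of Oas1b were 46 and 28 for control KD against 20 and 8 for GSTM1 KD. Its libraries also lie apart in CPM, and the log2 fold change was -0.91 (SE 0.457, adjusted p = 0.233). For Oasl2 it was 0.14 (SE 0.258, adjusted p = 0.735), and it turned to -0.20 without control KD basal replicate 1. Oas2 (1, 3, 0 and 2 counts) and Oas3 (2, 0, 0 and 0 counts) were at or under the floor in the 4 basal libraries, and no fold is given.

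The fitted change of Oasl1 ran from -2.44 to -1.57 when single libraries were left out. Its call was lost without control KD replicate 1 (-1.90, adjusted p = 0.0583), GSTM1 KD replicate 1 (-2.44, adjusted p = 0.149) or GSTM1 KD replicate 2 (-1.57, adjusted p = 0.343), fits with fewer samples in which 2185, 1 and 3 of all genes were called. Without control KD replicate 2, Oasl1 and Oasl2 were called.

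The second comparison asked the same question after TNF-α stimulation. Here Oasl2 and Oas1b were higher in GSTM1 KD, by 2.56-fold and 2.99-fold, and the fitted changes of Oas1a, Oas2, Oas3 and Oasl1 were above 0 but did not pass the test. With the replicate number as a block in the fit, Oas2, Oas3 and Oasl1 also passed, and the labels do not say what that number marks. Counts of Oasl2 were 1941 and 1454 for control KD against 6080 and 2861 for GSTM1 KD, and the log2 fold change was 1.36 (SE 0.254, adjusted p = 0.0276). Oas1b had 79 and 47 counts (4.58 and 3.26 TPM) in control KD and 271 and 113 counts (17.2 and 7.94 TPM) in GSTM1 KD. In both genes each GSTM1 KD library lay above each control KD library. The log2 fold change of Oas1b was 1.58 (SE 0.373, adjusted p = 0.0444). Its call was lost with effective-length offsets and with limma on TPM, and its log2 fold change was 1.04 to 1.98 over the alternatives. Of all 14593 genes tested, 7.26% were called higher and 8.92% lower. Oligodendrocyte lineage markers here summed to 448 to 479 TPM in control KD and 340 to 352 TPM in GSTM1 KD, with Olig1 and Olig2 called lower. Neuron markers summed to 185 to 188 and 211 to 219 TPM, with none called, and most of that sum was again Map2 (means of 110 and 137 TPM) and Tubb3 (71.9 and 73.4 TPM). Endothelial markers summed to 6.79 to 8.27 and 4.1 to 5.4 TPM, with Flt1 (log2 fold change -0.76) and Cdh5 (-1.41) lower, Kdr (1.25) higher and none called. Fibroblast and meningeal markers summed to 88.7 to 141 and 65.7 to 103 TPM, with Col1a2 called lower and Pdgfrb higher. The part of these markers was not tested.

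Oasl1, the gene lower at the basal level, had 241 and 120 counts (9.06 and 6.2 TPM) in stimulated control KD and 718 and 208 counts (30.8 and 11.4 TPM) in stimulated GSTM1 KD. The groups do not overlap, and the log2 fold change was 1.33 (SE 0.494, adjusted p = 0.118). Oas2 and Oas3 encode the synthetases built of several OAS domains, and Oas3 is known for the long chains of double-stranded RNA it binds. Counts of Oas2 were 8 and 5 for control KD against 45 and 14 for GSTM1 KD (log2 fold change 2.12, SE 0.610, adjusted p = 0.0686). Those of Oas3 were 16 and 5 against 90 and 18 (log2 fold change 2.32, SE 0.789, adjusted p = 0.0990). For both, the lower GSTM1 KD library was above the higher control KD library in CPM. These 2 genes passed the filter on low counts through the GSTM1 KD libraries, so their fitted changes add no support to a count over the family.

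Oas1a differed from the others in its overlap between groups. It had 193.82 and 98.93 expected counts (8.59 and 6.03 TPM) in control KD and 308.2 and 102.17 (14.9 and 6.25 TPM) in GSTM1 KD. Replicate 2 of GSTM1 KD was between the control KD libraries in TPM and below both in CPM (5.77 against 8.31 and 5.97), while replicate 1 was above both. The log2 fold change was 0.46 (SE 0.444, adjusted p = 0.490), or 0.53 (adjusted p = 0.426) with the reads of Oas1g added. Over the 4 genes above the floor in all libraries, Oas1a, Oas1b, Oasl1 and Oasl2, the median log2 change was 1.34, against -0.01 over all genes. No test of whether Oas1a differs from the other OAS genes was made.

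Without GSTM1 KD TNF-α replicate 1, neither the OAS genes nor any other gene passed edgeR's threshold. Oasl2 was then at a log2 fold change of 0.93 (adjusted p = 0.0734), Oas1b at 1.04 (adjusted p = 0.197), Oasl1 at 0.42 (adjusted p = 0.483) and Oas1a at -0.31 (adjusted p = 0.655). Without GSTM1 KD TNF-α replicate 2, Oasl2 was the OAS gene called, and 94 of all genes were.

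**Figure D2:**
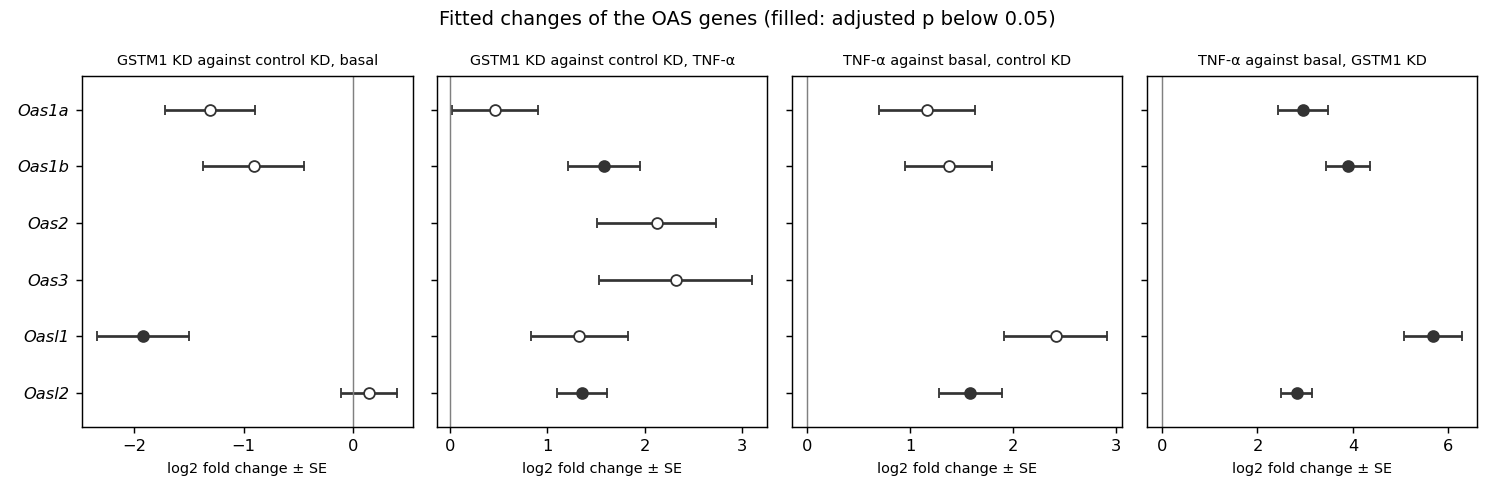
Fitted log2 fold changes (horizontal axis, scales differ between panels) with the standard error from the model as bars, for each OAS gene in the 4 comparisons. Filled points passed the adjusted p threshold of 0.05, and Oas2 and Oas3 are left out where a group was at or under the floor. Oasl1 is at -1.92 in the basal panel and at 1.33 in the stimulated panel.

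**Figure D3:**
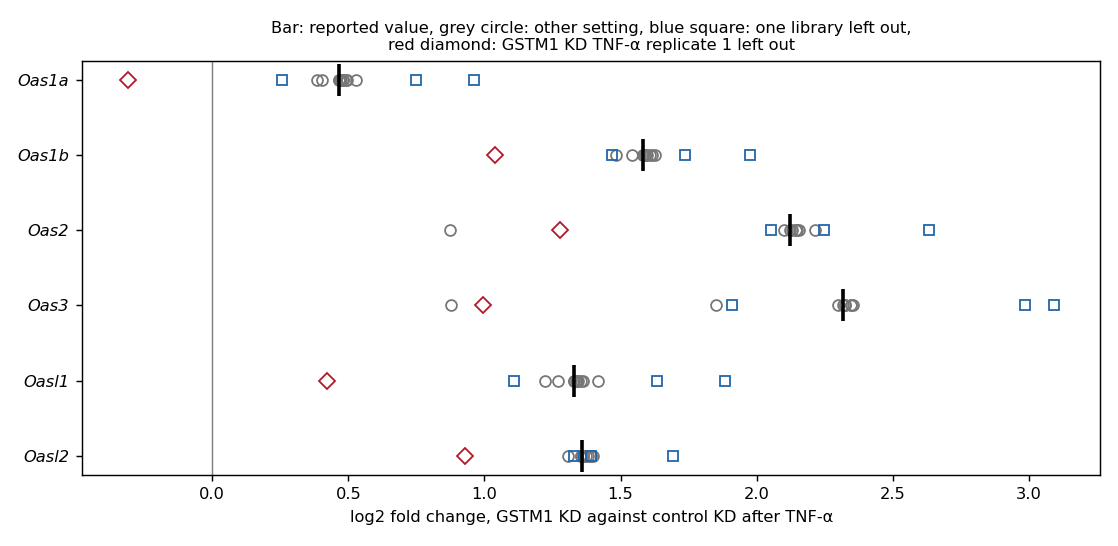
The log2 change of each OAS gene in stimulated GSTM1 KD against control KD (horizontal axis) as reported (black bar), under other settings (grey circles), without single libraries (blue squares) and without GSTM1 KD TNF-α replicate 1 (red diamonds). Oas1a is below 0 without that library, at -0.31, and the other 5 genes stay above 0 under the settings shown.

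The third comparison, which shares its libraries with the others, followed the response to TNF-α within control KD astrocytes. Of the 6 OAS genes tested, 1 passed the test, Oasl2. Among all 15332 genes tested, 2.1% were called higher and 0.528% lower. Oasl2 rose 3.0-fold (log2 fold change 1.58, SE 0.305, adjusted p = 0.0469). Oasl1 went from 59 and 42 to 241 and 120 counts (log2 fold change 2.41, SE 0.501, adjusted p = 0.0587). Oas1b was at 1.37 (SE 0.419, adjusted p = 0.193) and Oas1a at 1.16 (SE 0.467, adjusted p = 0.358). Oas2 had 4 counts in the basal libraries together and 13 after stimulation, a ratio of 4.88 with an exact 95% counting interval of 1.51 to 20.6. Oas3 went from 2 to 21 counts, a ratio of 15.8 (3.86 to 139). These intervals cover counting error only. The call of Oasl2 was lost without control KD basal replicate 1, without control KD TNF-α replicate 1 and without control KD TNF-α replicate 2, with adjusted p up to 0.158, while its log2 fold change stayed between 1.24 and 2.03 without single libraries.

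In GSTM1 KD astrocytes the response to TNF-α was called in 4 of 6 OAS genes, where 2.35% of all genes were called higher and 0.294% lower. Oasl1 rose most among these 4, from 13 and 6 to 718 and 208 counts, with a log2 fold change of 5.68 (SE 0.614, adjusted p = 0.00433). Oas1b rose 14.8-fold (log2 fold change 3.89, SE 0.459, adjusted p = 0.00604). Oas1a rose 7.74-fold (2.95, SE 0.515, adjusted p = 0.0312) and Oasl2 rose 7.06-fold (2.82, SE 0.317, adjusted p = 0.00499). Counts went from 20 and 8 to 271 and 113 for Oas1b, and from 39.77 and 17 to 308.2 and 102.17 for Oas1a. Those of Oasl2 went from 752 and 615 to 6080 and 2861. Oas2 went from 2 to 59 counts, a ratio of 32.4 (exact 95% counting interval 8.57 to 273), with an adjusted p of 0.0528. Oas3 had no count in the basal GSTM1 KD libraries, which allows up to 0.129 and 0.149 CPM, and 90 and 18 counts after stimulation. Its mean CPM was thus at least 18.5-fold higher, computed at 3 counts per basal library, and in stimulated replicate 2 alone it was at least 7.32-fold higher. The adjusted p was 0.0510. Oas2 and Oas3 passed the filter on low counts through these stimulated GSTM1 KD libraries, so their rises add no support to a count over the family.

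Over the 4 genes above the floor in all libraries the log2 responses had medians of 1.48 (control KD) and 3.42 (GSTM1 KD), beside -0.02 and -0.01 over all genes. The 4 calls in GSTM1 KD were lost without either of its basal libraries, where 83 and 74 of all genes were called, and the log2 responses were then 6.21 and 5.33 for Oasl1, 4.56 and 3.47 for Oas1b, 3.56 and 2.55 for Oas1a and 2.86 and 2.79 for Oasl2. Oasl2, Oas1b and Oasl1 stayed called without GSTM1 KD TNF-α replicate 1, while Oas1a did not, at a log2 response of 2.17. Without GSTM1 KD TNF-α replicate 2, 5 were called.

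Whether the responses differed was tested by the interaction of knockdown and stimulation. The response was larger in GSTM1 KD by a log2 difference of 3.27 for Oasl1 (SE 0.797), 2.51 for Oas1b (SE 0.616), 1.79 for Oas1a (SE 0.686) and 1.24 for Oasl2 (SE 0.424), and none of them passed (adjusted p = 1.00 for each). Of all 15332 genes, 0% were called higher and 0% lower by edgeR. At an unadjusted p under 0.05, 4 of the 6 OAS genes and 198 genes with a larger response in GSTM1 KD were counted, against 97 with a smaller one. DESeq2 called 27 genes, and Oasl1 was the OAS gene among them. A larger response in GSTM1 KD is thus a difference in fitted values that the test did not call.

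Other parts of the pathway were followed by lists of genes, whose counts stand beside the shares of all genes given above (7.26% higher and 8.92% lower in stimulated GSTM1 KD, and 2.1% and 2.35% higher in the responses). As no gene differed between stimulated GSTM1 KD and control KD by edgeR's threshold without GSTM1 KD TNF-α replicate 1, the list counts of that comparison were 0 without it, and 11 of 12 partners and 27 of 27 other interferon-stimulated genes were higher in that library than in replicate 2. Among the 12 partners in double-stranded RNA sensing and 2-5A turnover, 5 were higher and 0 lower in stimulated GSTM1 KD (median log2 change 0.73), and 0 were higher and 1 lower at the basal level. Those with the smallest p were Ddx58 (1.35, SE 0.192, adjusted p = 0.0170) and Ifih1 (1.26, adjusted p = 0.0272), the cytosolic RNA sensors RIG-I and MDA5, with Zbp1 (2.29, adjusted p = 0.0262) and the endosomal receptor Tlr3 (1.06, adjusted p = 0.0400). In the response to TNF-α, 1 partner rose in control KD, Zbp1, and 9 rose in GSTM1 KD.

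Of the 14 interferon signalling genes, stimulated GSTM1 KD had 6 higher and 1 lower (median 0.87), and none was called among the 13 tested at the basal level. Factors of this pathway were among those higher: Stat2 (1.22, SE 0.276, adjusted p = 0.0413), Irf9 (1.07, SE 0.158, adjusted p = 0.0178) and Irf7 (1.54, SE 0.317, adjusted p = 0.0337). The receptor subunit Ifnar1 was lower (-0.49, adjusted p = 0.0265). In control KD, Irf9 rose after TNF-α (0.74, adjusted p = 0.0434), while Stat2 had 1.21 (adjusted p = 0.0907) and Irf7 1.08 (adjusted p = 0.175). All of these 3 rose in GSTM1 KD.

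Among 27 other interferon-stimulated genes tested, of which Ifih1 is also among the 12 partners, stimulated GSTM1 KD had 19 higher and 0 lower (median 1.3), with Lgals3bp (0.90), Ifit3b (2.04), Rtp4 (1.38) and Cmpk2 (2.28) at the smallest p. At the basal level 0 were higher and 1 lower of 26. In the response to TNF-α, control KD had 17 of the 27 called higher and GSTM1 KD had 25. Of the 15 TNF and NF-κB response genes, 0 were higher and 7 lower in unstimulated GSTM1 KD (median -1.39), and the counts were the same under TNF-α (median -0.73). The unstimulated count cannot hold without GSTM1 KD basal replicate 1 or 2, where 1 and 3 of all genes were called. Examples after TNF-α were the chemokine Cxcl2 (-2.93, adjusted p = 0.0106), Birc3 (-1.01, adjusted p = 0.0129), Tnfaip2 (-2.30, adjusted p = 0.0140) and the adhesion molecule Icam1 (-1.22, adjusted p = 0.0152). Of these 15 genes, 13 rose with TNF-α in control KD and 12 in GSTM1 KD. The median over all genes was -0.01 after TNF-α.

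**Figure D4:**
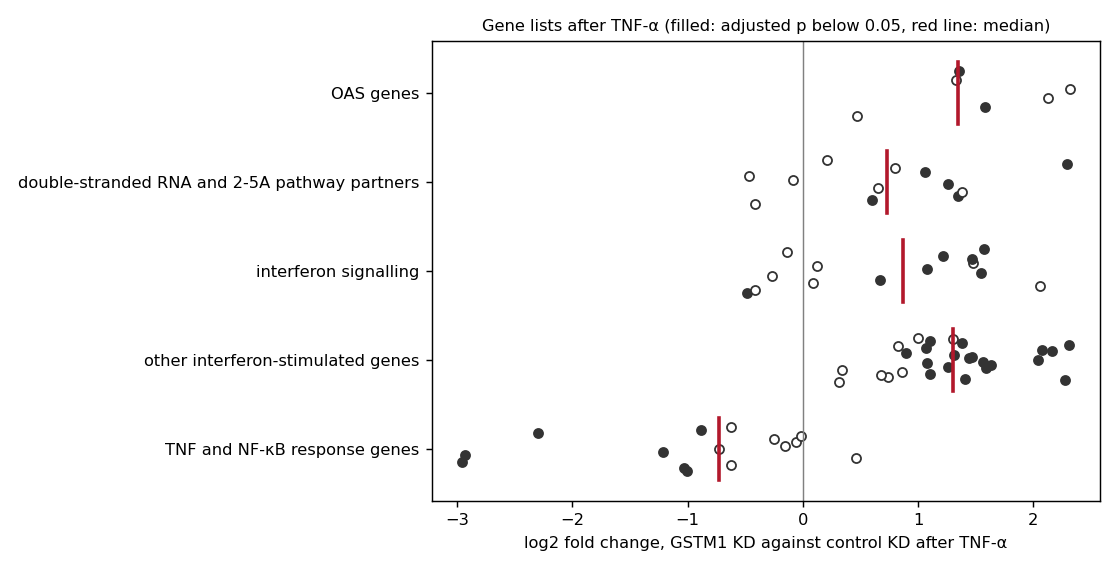
Each gene's log2 change in stimulated GSTM1 KD against control KD (horizontal axis), by list, with filled points for adjusted p below 0.05. Red lines are medians, taken for the OAS genes over the 4 above the floor (1.34). The other interferon-stimulated genes have a median of 1.3, and the TNF and NF-κB genes have a median of -0.73.

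The 6 OAS genes had similar profiles over the 8 libraries. Pearson's r of log2 CPM between pairs of them ranged from 0.81 (Oas1a and Oas2) to 0.98 (Oas1b and Oasl1), as a description over 8 libraries, in which all genes share depth and group. The mean of their standardised levels was lowest in basal GSTM1 KD (-0.95 and -1.13), then basal control KD (-0.66 and -0.51), stimulated control KD (0.52 and 0.30) and stimulated GSTM1 KD (1.61 and 0.83). Oas2 and Oas3 passed the filter on low counts through the stimulated GSTM1 KD libraries. Their high values there thus add no support to the likeness or to this mean. Of 15326 other genes the most like this mean were Usp18 (r = 0.994), Ifit1 (0.993), Helz2 (0.991), Trim25 (0.989), Irgm2 (0.989) and Slfn8 (0.988). The gene most like each member was Zc3hav1 for Oas1a (0.980), Usp18 for Oas1b (0.994), F830016B08Rik for Oas2 (0.978), Isg15 for Oas3 (0.991), H2-Q6 for Oasl1 (0.990) and Ifit3b for Oasl2 (0.994). For Oas1a, the gene with overlapping stimulated groups, Zc3hav1 was at 61.0 and 57.2 CPM in stimulated control KD and at 87.8 and 49.7 CPM in stimulated GSTM1 KD, which also overlap. Usp18 was at 46.4 and 42.2 CPM in stimulated control KD and at 180 and 85.4 CPM in stimulated GSTM1 KD, which lie apart like those of Oas1b.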

How the data were processed

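RNA-seq libraries that keep the strand were made from total RNA of 8 astrocyte samples, 2 in each of 4 groups taken from the labels. Per the labels, the submitters' processing notes name STAR 2.5.4b, RSEM 1.3.0 and GRCm38. The deposited expected counts are the authors' RSEM estimates per gene, which divide reads shared by similar transcripts. The deposited TPM values are the authors' RSEM values, scaled by effective length and total, and served for levels. The deposited effective lengths (in bases) entered only an alternative. The study describes the 2 libraries of a group as biological replicates.

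The expected counts, rounded to integers, were normalised by TMM and filtered with filterByExpr in edgeR 4.0.16 (R 4.3.3). Its quasi-likelihood test was adjusted by the Benjamini-Hochberg method over all genes tested (threshold 0.05). The knockdown was tested on the 4 libraries of each state, and TNF-α responses and their interaction on all 8. With 2 libraries a group no exact test over samples can pass, so adjusted p-values come from edgeR unless another tool is named. Alternatives used DESeq2 1.42.0, limma 3.58.1 on log2(TPM + 0.5), other scalings and filters, a replicate block and single libraries left out, where the lone library of a group is assumed to vary like the other groups. CPM used TMM-scaled library sizes, and log2 CPM a prior count of 2. Promoter words were searched with Python 3.11.15, and figures drawn with matplotlib 3.10.9.

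The members and lists were chosen with earlier results of these data known. The genes named were all 6 members, Stat2, Irf9 and Irf7, up to 4 genes of smallest p per list among those called after TNF-α with a count for each response, and the genes of closest profile. Lymphocyte markers summed to 0.13 to 0.89 TPM. The tests were checked on simulated counts. The count and TPM columns of all 8 libraries were used, and the depth per library is 17349676 to 34434633 counts. Some single genes that this rule or the lists hold are not reported here.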

Additional observations from a re-analysis of the deposited data

Results flagged for a closer look

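Oas1b and Oasl1 were lower in both GSTM1 KD libraries than in both control KD libraries without stimulation and higher in both under TNF-α. They are given here for this pattern, and neither was called in both states by edgeR's main fits. How many of all genes lie apart in the same way was not counted, so the pattern cannot be read as particular to Oas1b and Oasl1. The adjusted p there was 0.233 for Oas1b without stimulation and 0.118 for Oasl1 under TNF-α. With the replicate number as a block in the fit Oasl1 was called in both states, and the labels do not say what that number marks. The fitted change of the knockdown effect from the basal level to TNF-α was 2.51 on the log2 scale for Oas1b and 3.27 for Oasl1. The interaction test of edgeR did not call either (adjusted p = 1.00), and DESeq2 called Oasl1. Without GSTM1 KD TNF-α replicate 1 the knockdown effect after TNF-α was 1.04 for Oas1b and 0.42 for Oasl1, neither past the threshold.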

How the results depend on the processing

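Of the OAS genes called, 1 in the basal comparison became 0 with effective-length offsets, with all 8 libraries in the fit and with at least 10 counts in every library, which removes Oasl1 untested, and 2 with no filter and with the replicate block, and 0 to 2 without single libraries. After TNF-α, 2 became 4 with DESeq2, 1 with effective-length offsets and with limma on TPM, and 5 (adding Oas2, Oas3 and Oasl1) with no filter and with the replicate block, and 0 to 2 without single libraries. In the response of control KD, 1 became 2 with DESeq2, 0 with effective-length offsets, limma or only the 4 libraries compared, 5 with no filter and 4 (adding Oas1b, Oas3 and Oasl1) with the replicate block, and 0 to 1 without single libraries. In GSTM1 KD, 4 became 2 with at least 10 counts in every library, since Oas1b and Oasl1 were removed untested and the others stayed called (6 with the replicate block, DESeq2, library size only, no filter or the newer quasi-likelihood method), and 0 to 5 without single libraries. For the interaction, 0 became 1 with DESeq2 and 4 with no filter, and stayed 0 with the replicate block and without any single library. Signs reversed in 2 cases, Oasl2 at the basal level without control KD replicate 1 (-0.20, and up to 0.57 without other single libraries) and Oas1a after TNF-α without GSTM1 KD replicate 1 (-0.31, and up to 0.96). The cause was not tested. Same-numbered libraries deviated together with correlations of 0.165 to 0.575 over genes, but the labels do not say what a number marks.

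Over all genes, 1524 calls at the basal level became 2522 with DESeq2, 2762 with all 8 libraries, 3957 with no filter and 4712 with the replicate block, and 1 to 5256 without single libraries. After TNF-α, 2360 became 4540 with no filter, 4302 with the block and 0 to 5028 without single libraries. The responses had 403 calls in control KD and 406 in GSTM1 KD, with 761 and 647 by DESeq2, 1255 and 1050 with no filter, 988 and 808 with the block, 72 and 691 with only the 4 libraries compared, and 180 to 313 and 74 to 255 without single libraries. The interaction gave 27 with DESeq2 and 134 with no filter. With 2 libraries a group and counts at or under the floor, basal changes of Oas2 and Oas3 were not detectable at this depth.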

Other observations

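Among the 6 other Oas genes of the mouse, Oas1c and Oas1g passed the filter. Oas1c had 57 and 54 counts in basal control KD, 64 and 53 in basal GSTM1 KD, 33 and 30 in stimulated control KD and 178 and 90 in stimulated GSTM1 KD. It was higher in GSTM1 KD after TNF-α (log2 fold change 2.04, SE 0.346, adjusted p = 0.0229), and its response to TNF-α in control KD was -0.21 (adjusted p = 0.942). Oas1g, which shares reads with Oas1a, had 1.23 and 3 expected counts in basal GSTM1 KD, at or under the floor, and 60.8 and 21.83 after TNF-α, and the response was called (adjusted p = 0.0219). Oas1d, Oas1e, Oas1f and Oas1h had at most 2 counts in any library.

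Ifnb1, which encodes interferon beta, had no count in the 4 basal libraries, 7 and 1 counts in stimulated control KD and 25 and 9 in stimulated GSTM1 KD. The log2 fold change of GSTM1 KD against control KD after TNF-α was 2.06 (SE 0.753, adjusted p = 0.115). Ifnb1 passed the filter on low counts through the GSTM1 KD libraries, so this fitted change adds no support for a difference.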
